A study of Mus musculus and Bos taurus with 6 samples.

Results

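MicroRNA (miRNA) recovered with Argonaute 2 (AGO2) from the lactating mouse mammary gland were compared with the miRNA of total RNA from the same tissue. Known mouse miRNA were retained when their count passed a fixed threshold in any of the 4 libraries, which left 277 miRNA of the 895 known mouse miRNA and of the 1750 entries of the tables. The threshold lay between the highest counts of miR-425-3p and miR-6240, 174 and 172, which were just outside it with miR-3473b, and those of miR-133a-3p, miR-337-5p and miR-127-3p, 178, 181 and 183, which were just inside it. Of the 277 miRNA, 148 came from the 5p arm of their precursor and 129 from the 3p arm.

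The study sequenced small RNA from the mammary gland of mice and dairy cows, and only the mouse libraries are described here. All 4 libraries came from whole abdominal mammary glands, without lymph node, of primiparous FVB/N mice at day 12 of lactation. They formed 2 groups of 2 libraries, from 2 mice in all. The mouse samples 1 and 2 held total RNA, and the AGO2 samples 1 and 2 held RNA from gland lysates after co-immunoprecipitation with a monoclonal antibody against AGO2. The sources used here do not say which gland or mouse gave which library. With 2 libraries in each group, the tests borrow their estimate of spread from the whole table, and an exact permutation of the 4 labels could not reach 0.05.

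An miRNA gene is transcribed as a hairpin precursor, and both arms of the hairpin can give a mature miRNA, named 5p or 3p. One arm, the guide, is kept by an Argonaute protein and forms the RNA-induced silencing complex (RISC) with it, while the other arm, the passenger, is mostly degraded. The guide finds messenger RNA through its seed, the bases 2 to 8 from its 5′ end, so miRNA with the same seed share most predicted targets. Of the mammalian Argonaute proteins, AGO2 is the one known for cutting its targets. In the gland the miR-200 family is known as typical of epithelial cells, and the let-7 family is known for its rise in differentiated tissues.

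The mature sequences on which the results turn are given as deposited, written 5′ to 3′ in lower case, with the seed in capitals. The first set shows both arms of let-7 precursors, whose 5p arms, apart from let-7j, share a seed and are rich in G while their 3p arms are rich in C.
let-7d-5p: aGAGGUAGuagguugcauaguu
let-7a-5p: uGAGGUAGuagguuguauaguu
let-7i-5p: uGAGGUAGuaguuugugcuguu
let-7j: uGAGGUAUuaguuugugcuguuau
let-7d-3p: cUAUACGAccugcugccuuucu
let-7a-1-3p: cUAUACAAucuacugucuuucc
let-7i-3p: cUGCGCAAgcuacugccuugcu
The second set is the miR-200 family, which falls into 2 seeds that differ by a single base.
miR-200a-3p: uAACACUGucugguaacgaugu
miR-141-3p: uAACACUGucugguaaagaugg
miR-200b-3p: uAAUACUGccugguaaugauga
miR-200c-3p: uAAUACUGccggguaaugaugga
miR-429-3p: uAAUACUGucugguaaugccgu
The third set holds precursors whose more frequent arm was not the same in the AGO2 samples as in the mouse samples, with examples of few and of many G.
miR-574-3p: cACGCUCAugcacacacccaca
miR-574-5p: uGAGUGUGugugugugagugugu
miR-126a-5p: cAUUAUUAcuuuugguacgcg
miR-126a-3p: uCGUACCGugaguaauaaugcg
miR-674-5p: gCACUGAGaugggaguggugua

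Of the 277 miRNA, 232 were named in the RefSeq table of GRCm38.p6, 227 of them with the same sequence, and their places were set against the GENCODE annotation. Let-7d-3p lies at chr13:48536024-48536045 and let-7a-1-3p at chr13:48538188-48538209, both on the minus strand in exonic sequence of the long non-coding gene 6720427I07Rik. MiR-200a-3p lies at chr4:156054911-156054932 and miR-200b-3p at chr4:156055685-156055706, both in an intron of Ttll10 on the minus strand. MiR-141-3p and miR-200c-3p lie at chr6:124717917-124717938 and chr6:124718324-124718346, within an intron of the gene model Gm15884. MiR-574-3p lies at chr5:64970364-64970385 in an intron of Fam114a1, and miR-126a-3p at chr2:26591402-26591423 within Egfl7.

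The counts of all entries summed to 9299807 and 8391916 in the mouse samples and to 3909166 and 5041406 in the AGO2 samples, so a count of 0 allowed a level of up to 0.323, 0.357, 0.767 and 0.595 RPM (reads in 1000000), counting error only. The AGO2 samples were the shallower ones, and 7 of the 277 miRNA had a count of 0 in AGO2 sample 1 and none in the other libraries. Over the 277 miRNA, the log2 ratio of the 2 replicates had a standard deviation (SD) of 0.96 in the mouse samples and of 1.51 in the AGO2 samples. No precipitate with another antibody was analysed here. In a whole organ, fewer cells of a type and less RNA per cell cannot be told apart.

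Levels are given as CPM, counts in 1000000, after scaling by trimmed mean of M values (TMM). Changes are log2 fold changes of AGO2 over mouse with their standard error (SE), tested with the quasi-likelihood test of edgeR and adjusted by the method of Benjamini and Hochberg over all 299 entries past the threshold. Of the 277 miRNA, 34 were higher and 34 were lower in the AGO2 samples at an adjusted p under 0.05, against 15.4% higher and 12.4% lower among all entries tested. At an unadjusted p under 0.05 there were 56 and 59. Without AGO2 sample 1 the calls were 50 and 20, and without mouse sample 1 they were 22 and 20. Of the 53 called miRNA named by the rules of the methods, the 19 that kept their call with any library left out were let-7d-3p, let-7d-5p, let-7a-1-3p, let-7c-2-3p, miR-690, miR-3470a, miR-3470b, miR-350-3p, miR-376a-3p, miR-574-3p, miR-532-3p, miR-362-3p, miR-144-3p, miR-484, miR-200a-3p, miR-674-5p, miR-196a-5p, miR-34a-5p and miR-185-5p. Among these, miR-690, miR-3470a, miR-3470b, miR-350-3p, miR-376a-3p, miR-574-3p, miR-532-3p and miR-362-3p had passed the count threshold through the AGO2 samples alone. MiR-674-5p had passed it through the mouse samples alone. Their low level in the other group came with the selection. With the sized reads of each library as its size the calls were 21 higher and 66 lower, and once a trend on G and C content was taken out of each library, an alternative chosen after seeing the data, they were 13 and 7. This trend was fitted on the same entries, so its removal also takes out any difference between the groups that follows composition. Both AGO2 samples were above both mouse samples in 83 miRNA and below both in 114, against 33.1% and 39.8% of all entries. The median change of the 277 miRNA was -0.25, and it moved to -0.16 with the size factors of DESeq2, to -0.39 with library totals and to -0.81 with sized reads.

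The most abundant miRNA of the gland by mean level was also the most abundant with AGO2, and its lead was larger there. MiR-200a-3p had a level of 69440 and 115800 CPM in the mouse samples and of 271100 and 281000 CPM in the AGO2 samples. The groups did not overlap, and the log2 fold change was 1.58 (SE 0.27, edgeR adjusted p = 0.00039). MiR-141-3p, its partner in seed, was at 25420 and 37850 CPM in the mouse samples and at 50230 and 110500 CPM in the AGO2 samples. It rose by 1.34 (SE 0.37, adjusted p = 0.0098), and this call was lost without AGO2 sample 2 (log2 fold change 0.80, adjusted p = 0.43) and with sized reads (0.73, adjusted p = 0.14). With no count filter neither of these miRNA was called. Both were still called with the G and C trend removed, with log2 fold changes of 1.51 and 2.09.

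The 3 members of the other miR-200 seed had negative log2 fold changes, and 2 of them fell. MiR-200b-3p went from 30900 and 18370 CPM in the mouse samples to 11690 and 6580 CPM in the AGO2 samples, a log2 fold change of -1.43 (SE 0.44, edgeR adjusted p = 0.017). MiR-200c-3p went from 16460 and 5013 CPM to 4623 and 1963 CPM, a log2 fold change of -1.71 (SE 0.57, adjusted p = 0.032). MiR-429-3p had 4012 and 6856 CPM in the mouse samples and 3545 and 3455 CPM in the AGO2 samples, which did not pass the test (log2 fold change -0.63, adjusted p = 0.33). In all 3 the AGO2 samples lay below both mouse samples, and the signs of these 5 miRNA held under each scaling and with the G and C trend removed. The calls of miR-200b-3p and miR-200c-3p did not hold throughout: without mouse sample 1 the log2 fold changes were -1.01 and -0.60, without AGO2 sample 2 they were -0.93 and -1.06, and with the trend removed they were -1.19 and -0.53, none of them past the threshold.

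**Figure D1:**
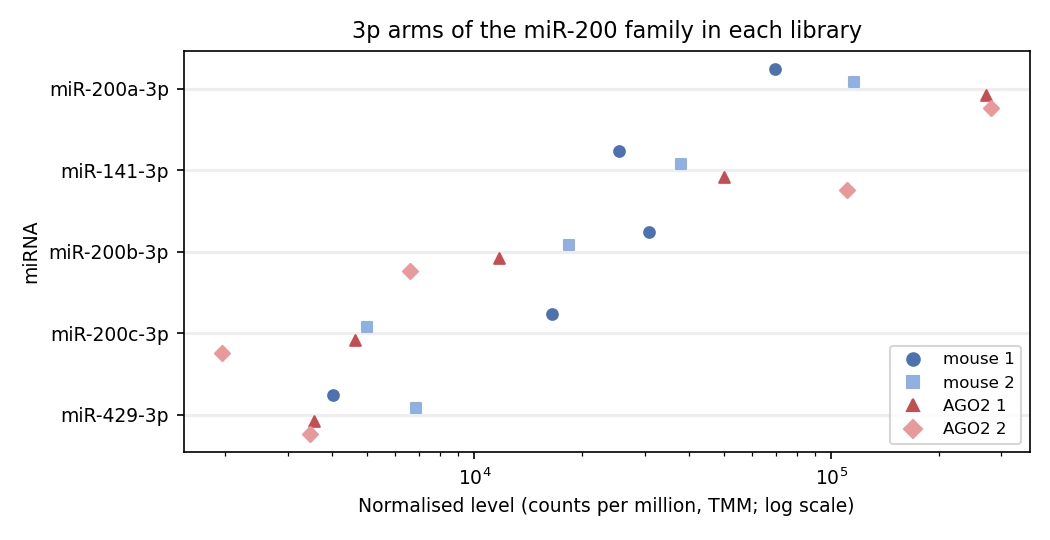
Level of the 3p arms of the miR-200 family in each of the 4 libraries (CPM, log scale), 1 point per library. MiR-200a-3p and miR-141-3p, of the first seed, lie higher in both AGO2 samples than in both mouse samples, while miR-200b-3p, miR-200c-3p and miR-429-3p, of the second seed, lie lower.

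Partners within a genomic cluster can come from a shared transcript, and their ratio was compared between the groups with limma, a comparison added after the data were seen. Some lists joined arms of different loci, so not every pair shares a transcript. Examples are miR-29a-3p with miR-29c-3p and let-7c-2-3p with miR-99a-5p. MiR-200a-3p and miR-200b-3p differ at 4 of 22 bases, counted from the 5′ end and written with the base of miR-200a-3p first: C4U, U9C, C17U and U22A. They hold the same number of G, 5, and 4 and 3 C. The log2 ratio of miR-200a-3p to miR-200b-3p was 1.17 and 2.66 in the mouse samples and 4.54 and 5.42 in the AGO2 samples, a change of 3.06 (SE 0.54, limma adjusted p = 0.0029). In the other cluster of the family, the log2 ratio of miR-141-3p to miR-200c-3p was 0.63 and 2.92 in the mouse samples and 3.44 and 5.81 in the AGO2 samples, a change of 2.86 (SE 0.83, adjusted p = 0.041). Of the 186 partner pairs tested in all clusters, 26 differed, that is 14%. The partner ratios were not refitted with a library left out or with the G and C trend removed.

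Other clusters also held partners that parted. MiR-24-3p, from the cluster with miR-23a and miR-27a, was at 11490 and 12030 CPM in the mouse samples and at 2986 and 3177 CPM in the AGO2 samples, and it fell by 1.93 (SE 0.47, edgeR adjusted p = 0.0034), a call lost without either AGO2 sample. MiR-27a-3p had 5404 and 8422 CPM in the mouse samples and 11530 and 18210 CPM in the AGO2 samples, a log2 fold change of 1.11 that did not pass the test (adjusted p = 0.069). The log2 ratio of miR-24-3p to miR-27a-3p was 1.09 and 0.51 in the mouse samples and -1.95 and -2.52 in the AGO2 samples, a change of -3.04 (limma adjusted p = 0.0019). MiR-24-3p is also made from the cluster with miR-23b and miR-27b, and reads of both genes cannot be told apart. In the clusters of miR-99a with let-7c and miR-125b and of miR-99b with let-7e and miR-125a, the let-7 partner fell against the 5p arms of both others: let-7c-5p changed by -3.52 against miR-99a-5p and by -3.59 against miR-125b-5p, and let-7e-5p by -4.29 against miR-99b-5p and by -3.06 against miR-125a-5p (limma adjusted p = 0.0030, 0.0024, 0.0023 and 0.0063). Let-7c-5p and miR-125b-5p are also made from genes outside these clusters, and their reads cannot be told apart. With the G and C trend removed, the log2 fold changes of let-7c-5p and let-7e-5p themselves turned to 0.79 and 1.31. No pair of the cluster of miR-17 and miR-92a was called, of 26 tested, nor of the cluster of miR-322 and miR-503, of 20 tested.

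The let-7 family gave the clearest division between arms. All 10 miRNA of the 5p arm, let-7j and miR-98-5p among them, were lower in the AGO2 samples, and 5 of the 7 of the 3p arm were higher, but with the G and C trend removed none of the 5p miRNA was lower, let-7b-5p was higher (log2 fold change 2.05, adjusted p = 0.031) and only let-7d-3p of the 3p miRNA was called. Both directions held with the DESeq2 size factors, library totals and sized reads, with 8 to 10 of the 5p miRNA and 4 or 5 of the 3p miRNA called. As a sum, the sequences with the let-7 5p seed were at 126200 and 88210 CPM in the mouse samples and at 29960 and 18300 CPM in the AGO2 samples, a log2 fold change of -2.15 (edgeR adjusted p = 2e-06). The 9 miRNA with this seed fell by between 1.82 and 3.25 each. Let-7a-1-3p and let-7c-2-3p have the same sequence and the same counts, so the 5 calls rest on 4 sequences. With the count threshold required in both groups, 9 of the 5p and 3 of the 3p miRNA remained, all of them called. The others had passed it only in the group where they were higher, so their low level in the other group came with the selection.

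The largest change of all 277 miRNA was that of let-7d-3p. It had 49.4 and 29.4 CPM in the mouse samples and 8042 and 6719 CPM in the AGO2 samples. Its log2 fold change was 7.55 (SE 0.68, edgeR adjusted p = 1.6e-07), and it was 5.10 (adjusted p = 0.00015) with the G and C trend removed. The 5p arm of the same hairpin, let-7d-5p, went the other way, from 8365 and 4619 CPM to 955 and 410 CPM (log2 fold change -3.25, SE 0.60, adjusted p = 0.00054).

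The other 3p arms of let-7 moved by less and from low levels. Let-7a-1-3p went from 43.2 and 67.0 CPM in the mouse samples to 460 and 314 CPM in the AGO2 samples (log2 fold change 2.81, SE 0.68, edgeR adjusted p = 0.0034). Let-7i-3p went from 9.70 and 9.67 CPM to 43.0 and 151 CPM (log2 fold change 3.33, adjusted p = 0.0085). Let-7b-3p rested on the smallest counts, with 1.98 and 1.40 CPM in the mouse samples and 23.8 and 41.6 CPM in the AGO2 samples (log2 fold change 4.26, SE 1.49, adjusted p = 0.038). Neither let-7f-1-3p nor let-7e-3p passed the test, with log2 fold changes of 2.62 (adjusted p = 0.068) and 2.34 (adjusted p = 0.21), although both AGO2 samples were above both mouse samples in all 7. Let-7b-3p, let-7i-3p, let-7e-3p and let-7f-1-3p had passed the count threshold through the AGO2 samples alone, so this position is partly set by the selection. The calls of let-7b-3p and let-7i-3p were lost without mouse sample 1 and without mouse sample 2.

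The abundant 5p arms of let-7 left the top of the list. Let-7g-5p, at 20350 and 28210 CPM in the mouse samples the highest of them by mean level, was at 6934 and 4076 CPM in the AGO2 samples, and its rank among the 277 miRNA went from 10 to 27. Let-7c-5p went from 25880 and 10210 CPM to 4323 and 1990 CPM. Both fell, with log2 fold changes of -2.14 and -2.51 (edgeR adjusted p = 0.0013 and 0.0014). Without AGO2 sample 2, neither passed the test any longer (log2 fold changes of -1.67 and -1.91), and 3 of the 10 5p miRNA were called lower, against 7 without mouse sample 1 and 8 without AGO2 sample 1.

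**Figure D2:**
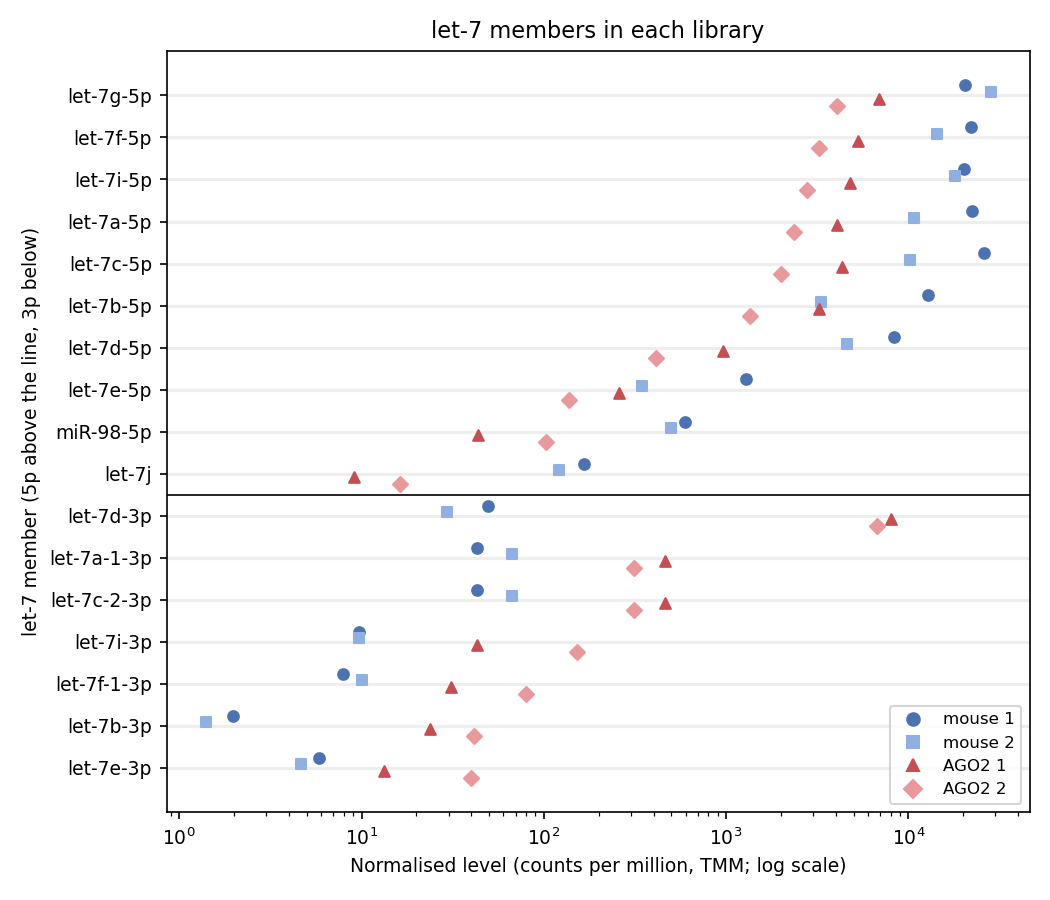
Level of the 17 let-7 miRNA in each of the 4 libraries (CPM, log scale), 5p arms above the line and 3p arms below it, 1 point per library. Both AGO2 samples lie left of both mouse samples in the 10 5p arms and right of them in the 7 3p arms, before the removal of a G and C trend, with which the 5p arms lost their calls.

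The division between arms was tested for each precursor name with counts for both. Loci of the same name were pooled and distinct sequences of an arm summed, so a pair can join several genes. The pairs of miR-199a and miR-199b used the same 3p reads. Of 178 such names with both arms listed and at least 1 arm among the 277 miRNA, 120 had at least 40 reads of the minor arm over the 4 libraries. The major arm was the one with the higher mean, over the 4 libraries, of the log2 reads in 1000000, so it was not always the arm with more reads in sum. The log2 ratio of major to minor arm, with 0.5 added to each count, was compared with limma. In the AGO2 samples, 23 pairs (19.2%) were shifted to the minor arm and 7 (5.83%) to the major arm, with a median change of -0.77 over the 120 pairs. The major arm was 5p in 84 of the 120 pairs and in 21 of the 23 shifted to the minor arm. These counts were unstable: without mouse sample 1 they were 2 and 1, without mouse sample 2 they were 3 and 1, without AGO2 sample 1 they were 37 and 21, and without AGO2 sample 2 they were 37 and 33. The shifts of let-7d and miR-126a were called with any library left out, and those of the other 15 of the 17 pairs with the largest changes (at most 10 in each direction) were lost without either mouse sample.

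The arm that had more reads was different between the groups, in all 4 libraries, in 10 of the 120 pairs. For let-7d the 3p arm made up 0.587% (95% Wilson interval 0.538% to 0.641%) and 0.632% (0.558% to 0.714%) of the reads of both arms in the mouse samples. In the AGO2 samples it made up 89.4% (89.1% to 89.7%) and 94.2% (94.0% to 94.5%), with 31056 and 30853 reads against 3690 and 1883 of the 5p arm. The change of the log2 ratio of 5p to 3p was -10.90 (SE 0.46, limma adjusted p = 8e-05). No other pair changed by as much.

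The pairs of miR-7a, miR-674, miR-34c and miR-193a also turned from the 5p to the 3p arm. MiR-7a, a pair known from neurons and endocrine cells, had 5065 and 5895 reads of the 5p arm and 223 and 238 of the 3p arm in the mouse samples, and 373 and 344 against 524 and 1453 in the AGO2 samples (change -5.85, limma adjusted p = 0.0088). MiR-674 went from 2645 and 1173 reads of 5p with 70 and 57 of 3p to 2 and 88 with 54 and 165 (change -7.47, adjusted p = 0.022). MiR-34c, which like miR-34a is known to be induced by p53, went from 1219 and 741 reads of 5p with 47 and 7 of 3p to 6 and 41 with 27 and 68 (change -7.06, adjusted p = 0.027). For miR-193a the 5p arm had 1180 and 689 reads against 36 and 71 in the mouse samples and 22 and 113 against 90 and 289 in the AGO2 samples (change -5.82, adjusted p = 0.019). These last 3 rested on few reads in AGO2 sample 1.

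MiR-126a, miR-345 and miR-574 turned from one arm to the other by a shift to the arm that this rule named major. MiR-126a, from within the endothelial gene Egfl7, had 151305 and 171764 reads of the 3p arm against 73690 and 115781 of the 5p arm in the mouse samples, and 26490 and 33833 against 87969 and 111453 in the AGO2 samples (change of the log2 ratio of 5p to 3p 2.53, SE 0.35, limma adjusted p = 0.0088). The 3p arm thus held 67.2% (67.1% to 67.4%) and 59.7% (59.6% to 59.9%) of the reads of both arms, then 23.1% (22.9% to 23.4%) and 23.3% (23.1% to 23.5%). The arms of miR-574 turned from 5p to 3p: 560 and 180 reads of 5p against 78 and 17 of 3p in the mouse samples became 54 and 31 against 392 and 551 (change 6.59, adjusted p = 0.0088). For miR-345 the 3p arm led in the mouse samples, with 1536 and 1083 reads against 307 and 508, and the 5p arm led in the AGO2 samples, with 537 and 821 against 195 and 105 (change 3.92, adjusted p = 0.024). The arms of miR-142, a leukocyte miRNA, and of miR-350 also exchanged their order, without passing the test (adjusted p = 0.076 and 0.067).

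A further group of pairs shifted without a change of order that held in both AGO2 samples. In AGO2 sample 2 only, the 3p arms of miR-1839 and miR-532 led, with 57.6% and 53.9% of the reads of both arms. MiR-30b and miR-30c shifted away from their 3p arm in the AGO2 samples, with changes of 7.32 and 4.27 (limma adjusted p = 0.033 and 0.019). MiR-30b-3p had 362 and 183 reads in the mouse samples and 0 and 23 in the AGO2 samples, where 0 of 4066 reads of both arms allows a share of up to 0.0738%. MiR-30b-5p rose from 269 and 404 CPM to 1053 and 2265 CPM (log2 fold change 2.30, edgeR adjusted p = 0.0098), a call lost without mouse sample 1 and without AGO2 sample 2. MiR-30c-5p was called higher, from 457 and 540 CPM to 898 and 2457 CPM (log2 fold change 1.75, adjusted p = 0.047), but this call was lost with library totals (1.58, adjusted p = 0.085), with sized reads (1.12, adjusted p = 0.16), with no count filter, without either mouse sample and without AGO2 sample 2. The signs of both turned with the G and C trend removed, to -0.39 and -1.29. MiR-34a shifted to its 3p arm by -6.86 (limma adjusted p = 0.030), and miR-1839 by -7.78 (adjusted p = 0.0088), while miR-532 and miR-362, both in an intron of Clcn5, shifted to their 3p arm by -3.87 and -3.83 (adjusted p = 0.032 and 0.028). MiR-362-3p had 12.9 and 16.9 CPM in the mouse samples and 144 and 332 CPM in the AGO2 samples, and miR-532-3p had 15.8 and 11.4 CPM and then 84.4 and 388 CPM, while the 5p arms of both had log2 fold changes of 0.03 and -0.12 (edgeR adjusted p = 0.97 and 0.90).

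**Figure D3:**
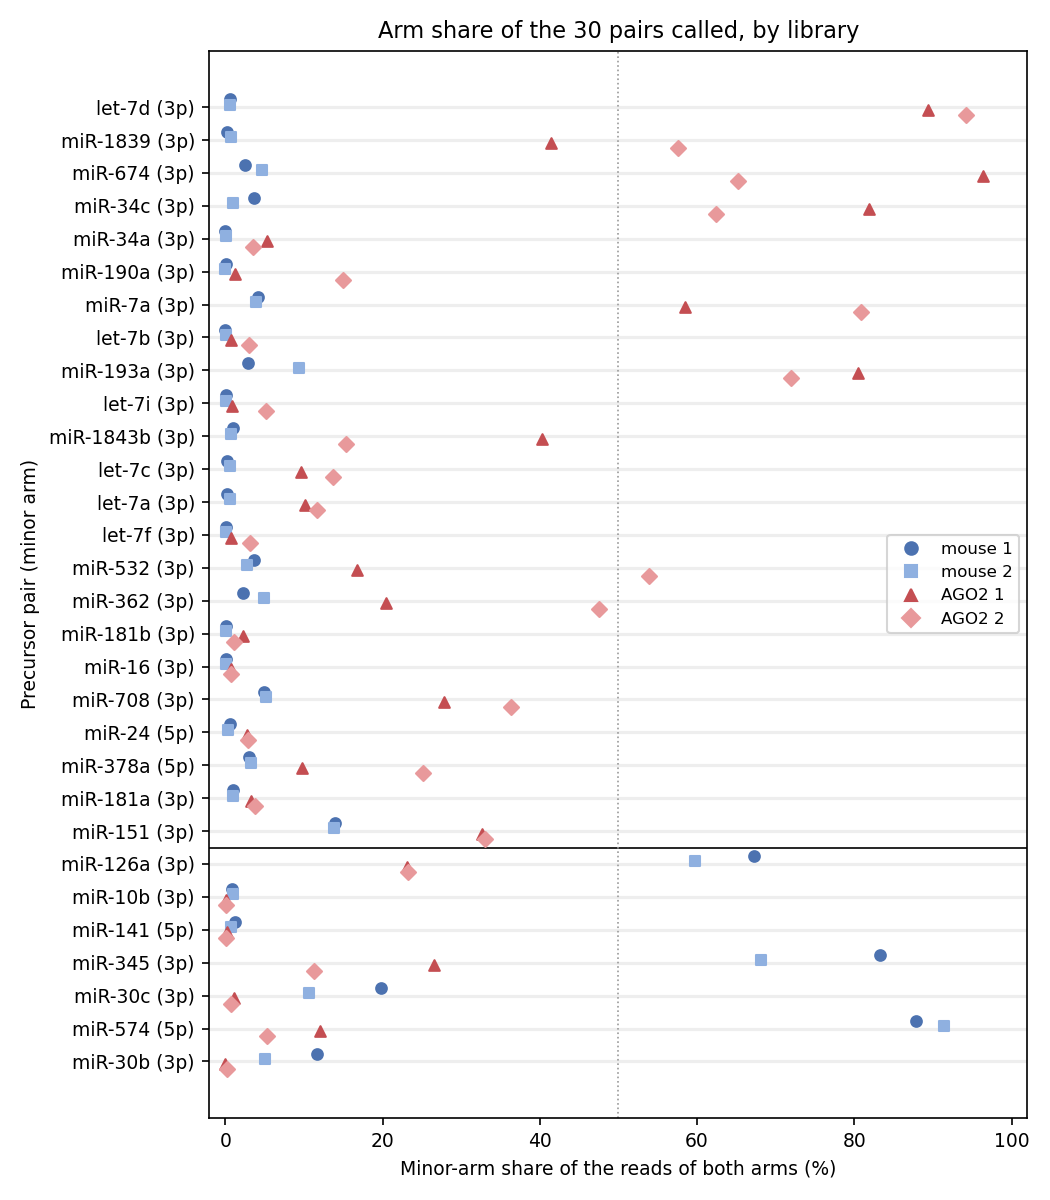
Share of the minor arm in the reads of both arms (%), for the 30 pairs whose arm ratio differed between AGO2 and mouse (limma), 1 point per library, with the pairs shifted to the minor arm above the line. Let-7d goes from below 1% in both mouse samples to 89.4% and 94.2% in the AGO2 samples, and miR-126a, miR-345 and miR-574 cross the 50% line in the other direction.

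Among the called miRNA with the largest increases were several that were nearly absent from total RNA. They passed the count threshold through the AGO2 samples alone, so a low level in total RNA came with the selection. Among the 277 miRNA, 28 passed it in the AGO2 samples only and 51 in the mouse samples only. With the threshold required in both groups, 198 miRNA remained, of which 26 were called higher and 27 lower. MiR-690 had 0.693 and 1.05 CPM in the mouse samples and 68.1 and 79.7 CPM in the AGO2 samples (log2 fold change 6.38, SE 1.17, edgeR adjusted p = 0.00054). MiR-3470a and miR-3470b, which differ by 1 base, U6C, were at 0.495 and 1.52 CPM and at 1.88 and 0.932 CPM in the mouse samples and at 51.0 and 117 CPM and at 63.7 and 140.9 CPM in the AGO2 samples. They rose by 6.37 and 6.16 (edgeR adjusted p = 0.00054 and 0.00037). MiR-376a-3p, an imprinted miRNA of the Dlk1-Dio3 region, went from 3.66 and 13.6 CPM to 234 and 236 CPM (log2 fold change 4.77, adjusted p = 0.00037). These 4 were also called with the G and C trend removed, with log2 fold changes of 5.11, 6.37, 5.90 and 4.75. The study describes mRNA and other small RNA as an important part of immunoprecipitated samples. It found an mRNA and a small nuclear RNA among its own AGO2 predictions. Whether these 4 entries are of such origin was not tested. The levels of miR-190a-3p, from 1.19 and 1.28 CPM to 4.40 and 100 CPM, and of miR-350-3p, from 3.07 and 12.2 CPM to 53.1 and 524 CPM, were uneven between the AGO2 samples. The other miRNA of the 10 largest called increases were miR-1839-3p, miR-136-5p and miR-574-3p, with log2 fold changes of 4.84, 4.60 and 4.50.

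Of the called miRNA whose groups did not overlap, miR-674-5p had the largest decrease. It went from 262 and 137 CPM in the mouse samples to 0.518 and 19.2 CPM in the AGO2 samples (log2 fold change -4.33, SE 1.02, edgeR adjusted p = 0.0032). MiR-34c-5p and miR-196a-5p, the latter encoded in the Hox clusters, changed by -4.29 and -4.20 (adjusted p = 0.0024 and 0.0018). MiR-34a-5p went from 1461 and 1885 CPM to 224 and 106 CPM (log2 fold change -3.34, adjusted p = 0.0010), and the 3 miRNA of the miR-34 seed had negative log2 fold changes, -1.01 in miR-34b-5p not passing the test, of which 1 of the 3 turned its sign with the G and C trend removed. The remaining miRNA of the 10 largest called decreases were let-7j, let-7d-5p, miR-185-5p, miR-1839-5p, miR-98-5p and miR-31-5p, with log2 fold changes between -3.50 and -2.85. With the G and C trend removed these 10 kept their direction and were not called. Among them, miR-674-5p, miR-34c-5p and let-7j had passed the count threshold through the mouse samples alone, so their low level with AGO2 came with the selection.

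Among the 10 most abundant miRNA of each group, 7 were shared. MiR-148a-3p, an miRNA typical of the lactating gland and of milk, was second in the AGO2 samples, with 80800 and 84080 CPM in the mouse samples and 99380 and 103900 CPM in the AGO2 samples (log2 fold change 0.30, edgeR adjusted p = 0.40), and its sign turned with sized reads (-0.28) and with the G and C trend removed (-0.64). MiR-146b-5p, second in the mouse samples, had 78440 and 98970 CPM and 69390 and 47090 CPM (log2 fold change -0.61, adjusted p = 0.14). MiR-29a-3p went from 24060 and 36290 CPM to 54150 and 84010 CPM and rose by 1.20 (SE 0.35, adjusted p = 0.014), a call lost without mouse sample 1 and without AGO2 sample 2. MiR-30a-5p, miR-126a-5p and miR-451a entered the first 10 of the AGO2 samples, and miR-200b-3p, miR-26a-5p and let-7g-5p left it. MiR-126a-5p was called higher (log2 fold change 1.18, adjusted p = 0.042), a call lost without mouse sample 1, without either AGO2 sample, with no count filter, with library totals (1.04, adjusted p = 0.077), with sized reads (0.61, adjusted p = 0.26) and with the G and C trend removed (0.67, adjusted p = 0.31).

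Lists of miRNA typical of a cell type or tissue are read against the 15.4% higher and 12.4% lower among all entries tested. Of 16 epithelial miRNA 2 were higher and 4 lower, miR-200a-3p and miR-141-3p against miR-200b-3p, miR-200c-3p, miR-31-5p and miR-375-3p, with a median log2 fold change of -0.74 beside -0.25 for all 277. MiR-31-5p went from 496 and 417 CPM to 79.5 and 47.5 CPM (log2 fold change -2.85, edgeR adjusted p = 0.0033). None of 9 miRNA of secretory glands (median 0.47), of 6 of leukocytes (median 0.33), of 8 of stromal and contractile cells (median 0.06) or of 5 of neurons (median -0.78) was called in either direction at this adjusted p. MiR-150-5p of lymphocytes, at 230 and 255 CPM in the mouse samples and at 731 and 761 CPM in the AGO2 samples, had the lowest adjusted p of the leukocyte list, 0.059, at a log2 fold change of 1.62. Of 9 miRNA known from fat and energy metabolism, miR-103-3p and miR-193a-5p were lower, with log2 fold changes of -2.17 and -2.70. No miRNA of this list was called higher, although miR-193a-3p had a log2 fold change of 2.86 (list median -1.06). Of 2 from striated muscle, miR-1a-3p was lower, at 147 and 203 CPM in the mouse samples and 11.4 and 38.1 CPM in the AGO2 samples. The other, miR-133a-3p, went the opposite way with a log2 fold change of 2.69 and was not called. No miRNA of the liver list was past the threshold.

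Of 4 red cell miRNA 1 was called higher and 0 lower. MiR-144-3p went from 1017 and 1012 CPM in the mouse samples to 4825 and 5885 CPM in the AGO2 samples (log2 fold change 2.40, SE 0.54, edgeR adjusted p = 0.0021), and it was still called with the G and C trend removed (2.61). MiR-451a, its partner in the cluster, is known to be cut by AGO2 itself in place of Dicer. It had 10770 and 5277 CPM in the mouse samples and 26920 and 10800 CPM in the AGO2 samples, where the lower AGO2 sample exceeded the higher mouse sample by little (log2 fold change 1.23, adjusted p = 0.065), and its sign turned with the G and C trend removed (-0.21). Of the miRNA known to bypass the Drosha complex, miR-484 rose from 180 and 121 CPM to 586 and 1678 CPM (log2 fold change 2.91, adjusted p = 0.0034). MiR-320-3p did not pass the test (log2 fold change -1.81, adjusted p = 0.083), with 1671 and 198 CPM in the mouse samples and 328 and 206 CPM in the AGO2 samples.

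Counts of all sequences with the same seed were then summed. Of 211 seeds tested with edgeR, 41 were higher (19.4%) and 23 lower (10.9%). Of the 36 seeds held by at least 2 of the miRNA sequences, 7 were higher and 6 lower. No seed held a miRNA called higher together with one called lower. Seeds with a higher sum were those of miR-200a-3p and miR-141-3p (log2 fold change 1.66, adjusted p = 1.1e-05), of miR-29 (1.28, adjusted p = 0.0056), of miR-30 (1.16, adjusted p = 0.019), of miR-99 and miR-100 (1.28, adjusted p = 0.042), of miR-199 5p (1.73, adjusted p = 0.025) and of the 3p arms of miR-181a and miR-181c and of let-7a. Besides the let-7 seed, that of miR-34 (-2.93, adjusted p = 8.9e-05), that of miR-103 and miR-107 (-1.76, adjusted p = 0.0011), that of miR-200b-3p, miR-200c-3p and miR-429-3p (-1.23, adjusted p = 0.019), that of miR-190 and that of miR-196 were lower. The large sums of the miR-17, miR-15 and miR-26 seeds did not pass the test, with log2 fold changes of -0.24, -0.70 and -0.60.

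The direction of change followed the base composition of the mature sequence. Over the 277 miRNA, Spearman's rho of the log2 fold change was -0.68 with the share of G and 0.60 with the share of C, and 0.01 with the share of both together. As a description without a test, the 34 miRNA with at most 3 G had a median log2 fold change of 2.38, of which 16 were called higher and 0 lower, while the 41 with at least 8 G had a median of -1.94, of which 0 were called higher and 15 lower. Among all entries tested, 15.4% were higher and 12.4% lower. The sequences of miR-574 show a wide contrast, with 2 G and 11 C in the 3p arm and 11 G and 0 C in the 5p arm. Without the let-7 family, rho with the share of G was -0.64 over 260 miRNA, and over the 145 miRNA with a mean count above 1000 it was -0.67. The relation was present in each AGO2 sample against each mouse sample, with rho between -0.74 and -0.48. Shares of G also went with the difference between replicates, with rho of 0.40 for mouse sample 1 over mouse sample 2 and of 0.28 for AGO2 sample 1 over AGO2 sample 2. The points share the 4 libraries and many of them their families, and the part of library preparation in this relation was not tested.

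**Figure D4:**
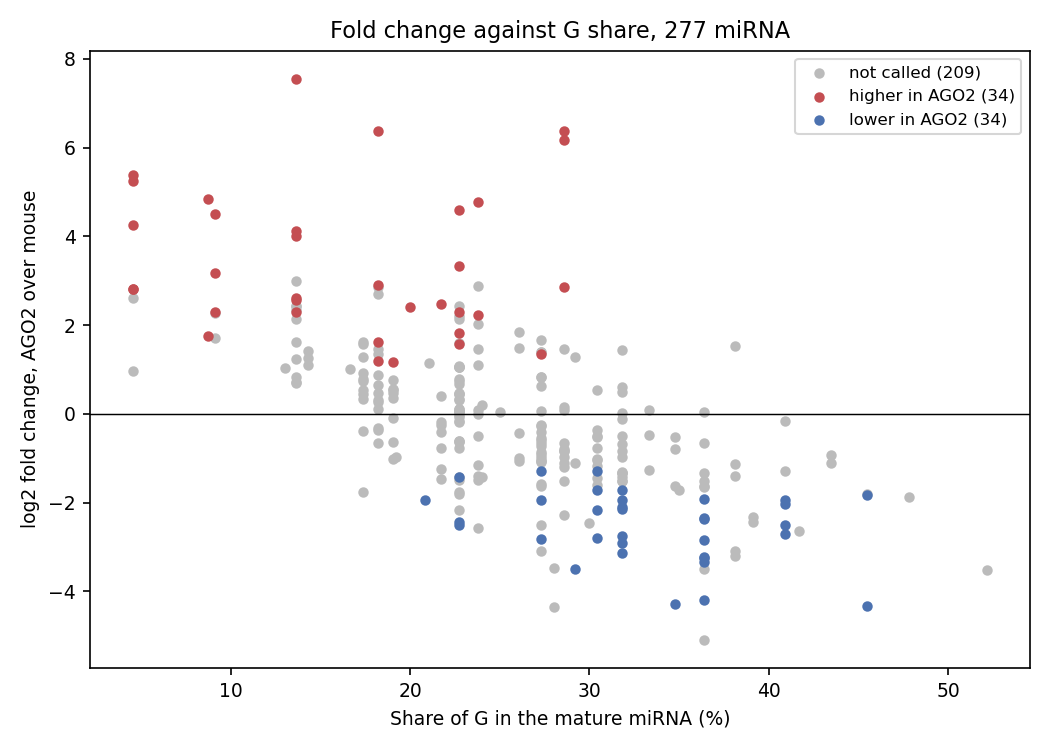
Log2 fold change of AGO2 over mouse against the share of G in the mature sequence (%), 1 point for each of the 277 miRNA, coloured by call (edgeR adjusted p under 0.05). Of the 34 miRNA with at most 3 G 16 are called higher and 0 lower, of the 41 with at least 8 G 0 are called higher and 15 lower, and calls of both directions occur at 5 and 6 G. Among all entries tested, 15.4% are called higher and 12.4% lower.

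The arms of a hairpin pair with each other, so a G in one tends to face a C in the other, and the arm ratio followed composition too. Over the 120 pairs, the change of the ratio had a rho of -0.70 with the difference in G share between the major and the minor arm and of 0.68 with the difference in C share. The miRNA of the 5p arm had a median log2 fold change of -0.67 and those of the 3p arm of 0.20. Other features went less with the change: by first base the medians were -0.61 for U in 128 miRNA, -0.44 for A in 73, -0.10 for G in 16 and 0.46 for C in 60, and rho with length was -0.13.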

How the data were processed

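Small RNA from 2 mouse total RNA libraries and 2 AGO2 co-immunoprecipitation libraries was sequenced on an Illumina instrument. After removal of poly-A stretches, the authors assigned reads between 17 and 28 nt long to miRBase release 20 and to predicted precursors (score above 0), using the miRDeep2 quantifier. The version of the aligner is not given in the sources used here, and the submitters' processing notes name GRCm38. The deposited values used are raw counts per mature miRNA. A deposited column of normalised values was the count times 1 constant per library and was not used, nor were the authors' lists of predictions. Reads that match several identical mature sequences were counted for each, and 6 of the miRNA share a sequence.

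The members and the lists were chosen with earlier results of these data known. All 299 entries past the count threshold in any library entered the test of edgeR 4.0.16, under R 4.3.3 (TMM, quasi-likelihood F test, Benjamini-Hochberg adjustment). Arm ratios and partner ratios were tested with limma 3.58.1 on log2 ratios of counts, with 0.5 added to each. Seeds were bases 2 to 8. Named miRNA were the 10 largest changes in each direction with an adjusted p under 0.05 and groups that did not overlap, the 10 most abundant of each group, the 10 largest arm changes in each direction, list members and seeds of at least 2 miRNA. Others were chosen after their values were seen, such as miR-150-5p. Nothing says that the libraries are independent beyond the 2 mice, so p-values measure the spread between these samples only. Wilson intervals and limits of 3 counts cover counting error only. The fits were tested on simulated data. Alternatives were DESeq2 1.42.0, other scalings and filters, a linear trend on G and C share taken out of each library, other seeds and pseudocounts, and each library left out. Python 3.11.15 was used with pandas 2.3.3, SciPy 1.17.1 and matplotlib 3.10.9.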

Additional observations from a re-analysis of the deposited data

Results flagged for a closer look

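Beside the 277 known mouse miRNA, 22 predicted entries or entries named for another species passed the count threshold, and they were part of the test, of its adjustment and of the background shares but are not described singly above. Of these, 12 were called higher in the AGO2 samples by edgeR and 3 lower, which flagged them as a signal outside the main measurement. The counts of the 12 were at most 38 in a mouse library, and 4 of them were at 0 in both. Their highest AGO2 counts lay between 176 and 1164. In 2 of the 12 the AGO2 samples were over 10-fold apart. Groups of 2 libraries were not examined for single libraries that stand apart.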

How the results depend on the processing

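No paired analysis was possible because the labels number the 4 mouse libraries without pairing a total RNA library with an AGO2 library. Compared with 34 higher and 34 lower miRNA, DESeq2 called 56 higher, no count filter gave 20 higher, sized reads gave 21 higher and 66 lower, and the G and C trend removed, chosen after seeing the data, gave 13 and 7, of which 10 and 2 were calls of the main test. Leaving out each library in turn gave 22 to 50 higher and 20 to 30 lower miRNA, 2 to 37 arm pairs shifted to the minor arm, 1 to 33 shifted to the major arm, 18 to 42 higher seeds and 11 to 30 lower seeds, against 23, 7, 41 and 23. With the major arm taken from the bovine libraries, 82 pairs could be used, and 15 shifted to the minor arm and 0 to the major arm, beside an unadjusted p under 0.05 in 15 pairs to the major arm in the main test. With library totals 18 seeds were higher. Of the 53 miRNA named and called, 19 kept the call with any library left out, and of 17 arm pairs, 2 did. With the G and C trend removed the log2 fold change reversed to -0.17 in let-7a-1-3p and let-7c-2-3p, -0.02 in let-7b-3p, 0.41 in let-7a-5p, 2.05 in let-7b-5p, 0.79 in let-7c-5p, 1.31 in let-7e-5p, 0.17 in let-7f-5p, 0.10 in let-7i-5p, -0.64 in miR-148a-3p, -0.39 in miR-30b-5p, -1.29 in miR-30c-5p and -0.21 in miR-451a. That of miR-148a-3p reversed to -0.28 with sized reads, and that of miR-181a-5p lay between -0.54 and 0.08 with 1 library left out. The causes were not tested. The depth of AGO2 sample 1 limits miRNA of low level.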

Other observations

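The miRBase number and the length of the 277 miRNA were set beside their change. The median log2 fold change of AGO2 over mouse was -0.18 in 234 miRNA numbered under 500, -0.78 in 26 numbered from 500 to under 1000 and -1.11 in 17 numbered from 1000. The calls in these classes were 27 higher and 31 lower, 4 higher and 1 lower, and 3 higher and 2 lower. Among all entries tested, 15.4% were higher and 12.4% lower. By length, the median was 0.04 in 48 miRNA of 21 nt, -0.01 in 162 of 22 nt, -0.53 in 51 of 23 nt and -1.11 in 7 of 24 nt. These are descriptions over miRNA that share the 4 libraries, with no test.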
